A study of Mus musculus with 9 samples.

Results

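The genes described here are 46 mouse genes of DNA replication and S phase, chosen by symbol from a fixed list. All 46 were found among the 22977 genes kept from each table, and all 46 passed the filter on low values, which kept the 10004 genes that reached an FPKM of 1 in 3 or more of the 9 libraries. FPKM counts sequenced fragments for the length of a transcript and the total of a library, so levels can be compared between genes. The list covers origin recognition and loading (6 genes), the Mcm helicase ring (6), helicase activation (5), polymerases and primase (8), the clamp and its loader (6), single-strand binding and Okazaki fragment maturation (4), nucleotide supply (4), and S phase control, fork protection and chromatin assembly (7).

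The libraries come from splenic germinal center B cells of a study on Foxo1, proliferation and T cell help. One group, called Foxo1-deficient here, is Foxo1(f/f) cells marked CD45.1/2, and no zone gate was set when they were sorted. The other groups are Foxo1(+/+) cells marked CD45.1/1, sorted as dark zone (DZ, CD86 low and CXCR4 high) and as light zone (LZ, CD86 high and CXCR4 low). Each group has 3 libraries. Every cell carried 1 ERT2cre(KI/+) allele, a Cre that tamoxifen switches on, and 1 B1-8hi(KI/+) allele, which gives an NP-binding receptor. Cells of both genotypes had been transferred together into C57BL/6 mice immunized with NP-CGG in alum. The gate took B220+ NP+ GL7+ CD38- cells. All recipients received tamoxifen from day 7 to day 9 and were sorted on day 12. Genotype and gate change together between the Foxo1-deficient and the wild-type libraries and cannot be told apart. The stated gate of the Foxo1(f/f) cells is CD45.2-negative, which goes against their CD45.1/2 genotype. Whether replicates are separate animals is not stated, so the spread behind the p-values is that between libraries and may be technical.

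Replication starts when the origin recognition complex, Cdc6 and Cdt1 load the Mcm2 to Mcm7 ring onto DNA before S phase, and geminin blocks reloading afterwards. Cdc45 and the GINS complex turn the loaded ring into an active helicase. Primase and polymerase alpha lay down primers, the clamp loader places PCNA, and polymerases delta and epsilon extend the strands. Many of these genes are transcribed through E2F factors at the passage from G1 to S phase. Germinal center B cells are among the fastest dividing mammalian cells, and dark zone cells are known for a high share of cells in cycle.

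Foxo1, the targeted gene, measured 3.01, 1.79 and 0.808 FPKM in the Foxo1-deficient libraries, against 24.5, 19.5 and 19.1 in DZ and 14.8, 18.7 and 22.1 in LZ. The B cell markers were abundant in all libraries. The summed level of 12 germinal center B cell markers was 2110 to 2520 FPKM in Foxo1-deficient cells, 1680 to 2030 in DZ and 2030 to 2270 in LZ. Most of these sums was Ms4a1, Cd79a and Cd79b, and single markers differed in both directions. Ms4a1 had means of 647.9, 389.1 and 498.6 FPKM in the same order, and Gcet2 had 14.97, 70.12 and 17.98. Against DZ, 2 of the 12 rose and 1 fell by limma, against 2.1% and 0.75% of all genes. The summed level of 16 myeloid and neutrophil markers was 163, 234 and 315 FPKM in the Foxo1-deficient libraries, against 0.389 to 4.46 in DZ and 0.723 to 1.48 in LZ, and all 8 that could be tested were higher in Foxo1-deficient cells than in either zone (limma, adjusted p under the 0.05 threshold). The neutrophil precursor genes Mpo, Elane, Ctsg and Prtn3 were listed at 0 in all 9 libraries. The granule genes Ngp and Camp were listed above 0 only in Foxo1-deficient replicate 2 (5.79 and 3.86 FPKM) and Ltf only in replicates 2 and 3 (3.60 and 2.70). The 7 erythroid markers in the files summed to 201, 172 and 553 FPKM in Foxo1-deficient cells, against 13.2 to 21.7 in DZ and 21.9 to 44.4 in LZ, and the 5 that could be tested were higher in Foxo1-deficient cells than in either zone. The 5 plasma cell markers summed to 233 to 355 FPKM in Foxo1-deficient cells, 189 to 289 in DZ and 124 to 151 in LZ. Most of these sums was Igj, with means of 253.6, 200.4 and 88.81 FPKM in the same order. Xbp1 had means of 47.85, 44.95 and 41.85, and Irf4 was highest in LZ, with means of 6.862, 3.224 and 9.742. No group mean of Sdc1 or Prdm1 exceeded 1.159. The 8 T cell markers summed to 14.9 to 24.8 FPKM in Foxo1-deficient cells, 11.7 to 20.1 in DZ and 26.2 to 28.4 in LZ. Nearly all of these sums was Lck, with 14.65 to 24.76, 10.81 to 19.93 and 26.16 to 27.36 FPKM in the same order. The T cell genes Cd3e, Cd3g and Cd4 were listed at 0 in all 9 libraries. The part of these other cells in the values below was not tested.

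The levels of the replication genes spanned about 2 orders of magnitude. Pcna, the sliding clamp, stood highest with a mean of 253 FPKM over the 9 libraries, followed by Mcm6 with 97.6 and Slbp, which binds the stem-loop of histone messenger RNAs, with 84.5. Orc1, the largest subunit of the origin recognition complex, was lowest at 2.86 FPKM, below the E-type cyclin gene Ccne2 (5.79) and Gins3 (5.83). The 6 ring genes lay close together, from 53.3 FPKM for Mcm2 to 97.6 for Mcm6. The 5 genes that activate the ring lay well below it, from 5.83 for Gins3 to 21.4 for Cdc45, and the loaders Cdc6 and Cdt1 had 8.56 and 14.6. Polymerase and primase genes ran from 9.45 for Prim2 to 35.6 for Pold1, and clamp loader genes from 28.6 for Rfc4 to 76.1 for Rfc2. In nucleotide supply, the ribonucleotide reductase genes Rrm2 (77.1) and Rrm1 (52.0) stood above thymidine kinase Tk1 (31.9) and thymidylate synthase Tyms (13.6).

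**Figure D1:**
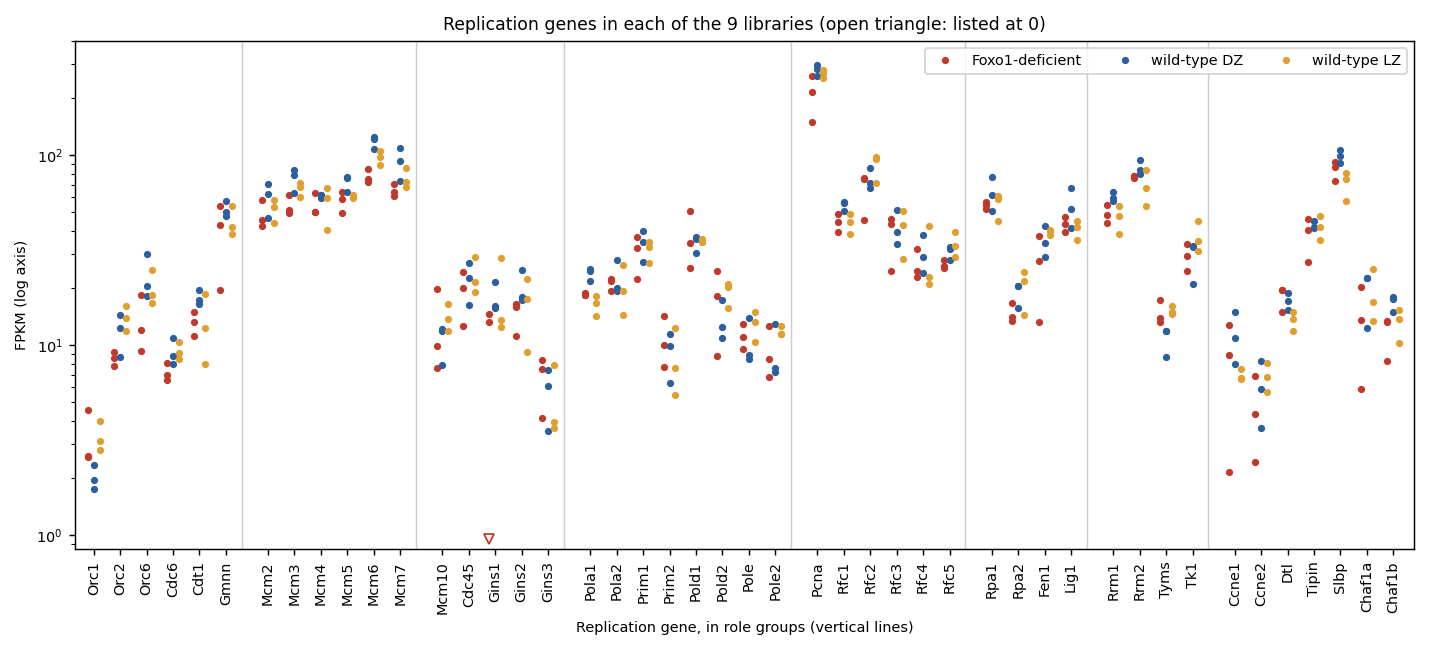
FPKM on a log axis for each of the 46 genes, 1 point per library, with Foxo1-deficient, DZ and LZ libraries side by side and role groups parted by vertical lines. Pcna is highest and Orc1 lowest in mean, and the open triangle marks Gins1, listed at 0 in Foxo1-deficient replicate 3.

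Against DZ, 1 of the 46 genes changed in Foxo1-deficient cells. Mcm6, a subunit of the helicase ring, fell, while 2.85% of all genes tested changed, 2.1% upward and 0.75% downward. At an unadjusted p under 0.05 there were 5 of the 46, all with negative changes, against 16.3% of all genes and 4.78% with negative changes. Of the 46 changes, 35 were negative, against 38.8% of all genes, and 11 were positive, against 61.2%. The median change was -0.26 on the log2(FPKM + 1) scale, against 0.12 over all genes tested, so that the replication genes lay 0.38 below all genes. Median centring shifts all genes of a library alike and cannot change this distance, which was 0.28 under quantile normalization. Without DZ replicate 3 the median change was -0.33, against 0.04 over all genes. No set test was made, since the list was chosen with earlier results of these data known. In bulk RNA, fewer cells in S phase and less RNA per cell cannot be told apart. The myeloid and erythroid marker sums given above were higher in each Foxo1-deficient library than in each DZ or LZ library.

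Mcm6 lies on chromosome 1 from 130228168 to 130256233 (mm9). It measured 84.9, 75.1 and 72.6 FPKM in the Foxo1-deficient libraries, against 122, 124 and 108 in DZ and 89.1, 97.5 and 105 in LZ. The 3 groups do not overlap, with DZ highest and Foxo1-deficient cells lowest. Mcm6 was the only one of the 46 genes with all 3 Foxo1-deficient libraries below all 6 wild-type libraries, which held for 2.02% of all genes, and none had them all above, which held for 4.67%. Against DZ it fell by 0.60 (SE 0.14, limma adjusted p = 0.0396). Against LZ its change was -0.32 (SE 0.14, adjusted p = 0.325), and between DZ and LZ it was 0.28 (SE 0.14, adjusted p = 0.359). The call against DZ was lost without any 1 of the 9 libraries (adjusted p from 0.0506 to 0.152) and with LZ kept out of the fit altogether (adjusted p = 0.0776), while the change itself stayed between -0.67 and -0.56 in these fits.

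Because Mcm6 is the gene that passed, the 250 bases before its RefSeq start are shown, from chr1:128359706-128359955 on the minus strand of GRCm38.p6. This build is not that of the expression tables and serves only for sequence. Capitals mark letters of the E2F type, that is TTTCCCGC, TTTGGCGC, TTTCGCGC or TTTGCCGC on either strand.
Mcm6: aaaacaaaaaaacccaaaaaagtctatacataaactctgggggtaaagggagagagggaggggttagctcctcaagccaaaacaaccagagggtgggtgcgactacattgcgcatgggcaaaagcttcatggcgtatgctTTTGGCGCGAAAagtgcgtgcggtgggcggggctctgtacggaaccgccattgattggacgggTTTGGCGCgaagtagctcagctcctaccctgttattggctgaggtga
Mcm6 held 3 matches, of which the pair that begins 110 and 106 bases before the start overlaps on opposite strands, and the last begins 47 bases before the start.

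None of the other ring genes passed. All 6 changes against DZ were negative, from -0.60 to -0.17, and remained negative under quantile normalization. Median centring lowers all changes in this comparison alike, so it could not turn their sign. The summed level of the 6 ring genes was 358 ± 23.5 FPKM in Foxo1-deficient cells, against 478 ± 54.1 in DZ and 407 ± 24.4 in LZ (SD, n = 3 each). Mcm3, Mcm7 and Mcm5 are singled out here after their values were seen. Mcm3 was 49.8, 61.5 and 51.4 FPKM in Foxo1-deficient cells, against 83.6, 78.8 and 63.1 in DZ, with no overlap (-0.46, adjusted p = 0.176). Mcm7 was 70.6, 64.1 and 61.3 FPKM in Foxo1-deficient cells, against 92.7, 109 and 72.7 in DZ, again with no overlap (-0.46, adjusted p = 0.207). Both passed under median centring of the libraries (adjusted p = 0.0295 for Mcm3 and 0.0189 for Mcm7), a setting that moves the median of all genes from 0.12 to -0.06. Mcm5 was 59.1, 63.8 and 49.6 FPKM against 76.7, 75.7 and 63.7 in DZ, and its highest Foxo1-deficient library just overlapped the lowest DZ library. Against LZ the 6 ring changes were closer to 0, from -0.32 to -0.01, and 1 of them turned positive under median centring and 2 under quantile normalization. At most 2 also turned positive when single libraries were left out (2 without Foxo1-deficient replicate 3 and 1 each without its replicate 1 or LZ replicate 2 or 3). Mcm7 also holds 3 annotated microRNAs in its locus, among them Mir106b, which the fragments of its FPKM could include.

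Of the ring genes with a window, 4 of 5 hold E2F-type letters, which the choice of genes did not use, and Mcm2 holds none. RefSeq windows from 250 bases before to 50 bases after the start were on hand for 37 of the 46 genes, and 14 of these 37 (37.8%) held at least 1 match, against 5.1% of the 7136 tested genes with a window. The second list of replication genes, described further on, had a match in 12 of 39 (30.8%). These 4, Mcm3, Mcm5, Mcm6 and Mcm7, each held 2 or more matches, against 0.308% of the tested genes. In Mcm5 the 2 matches overlap on opposite strands. By role, a match stood in 3 of 5 origin genes, 3 of 6 polymerase and primase genes, 1 of 5 clamp and loader genes and 0 of 4 nucleotide supply genes. Of the listed G2 and M phase genes with a window, 1 of 26 held the E2F type and 20 of 26 (76.9%) held TTTGAA, the letters of the CHR element of mitotic promoters, against 5 of 37 (13.5%) of the replication genes and 14.1% of tested genes. CCAAT, the NF-Y motif, stood in 24 of 37 replication genes (64.9%), 21 of 26 G2 and M genes (80.8%) and 44.4% of tested genes. A match in these letters is a description of the window only. Windows of 30 bases from Mcm3, Mcm5, Mcm7 and Pola1 show 1 match each in capitals, all read along the gene's own strand on GRCm38.p6. The Mcm5 window also holds an overlapping match that begins 149 bases before the start, with its last letters left in lower case.
Mcm3: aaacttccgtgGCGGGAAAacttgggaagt
Mcm5: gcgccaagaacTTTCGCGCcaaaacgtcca
Mcm7: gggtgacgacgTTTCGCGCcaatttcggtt
Pola1: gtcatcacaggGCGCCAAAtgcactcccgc
They lie at chr1:20820275-20820304 for Mcm3 (minus strand), chr8:75109345-75109374 for Mcm5 (plus strand), chr5:138171849-138171878 for Mcm7 (minus strand) and chrX:93632275-93632304 for Pola1 (minus strand). The match begins 19 bases after the start in Mcm3, 153 before it in Mcm5, 16 after it in Mcm7 and 138 before it in Pola1.

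**Figure D2:**
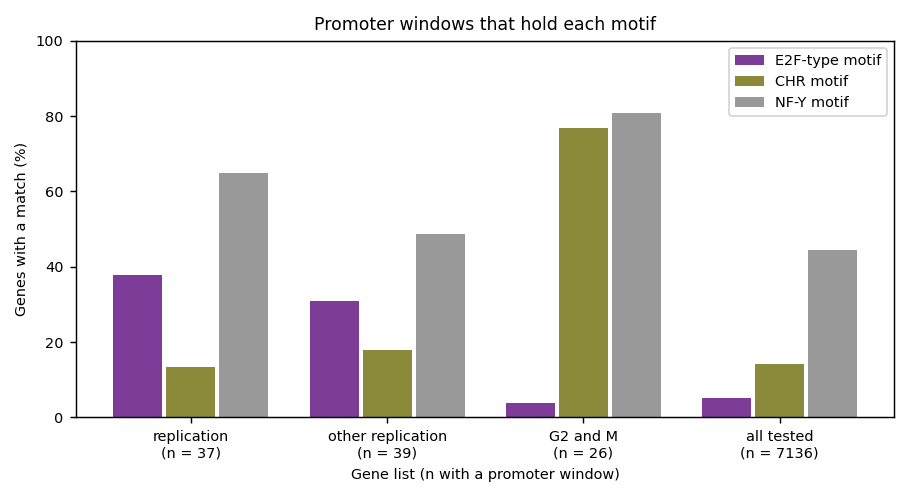
Percent of genes with at least 1 match in a promoter window, for 4 gene lists and 3 motifs, both strands counted. The E2F-type bar is 37.8% for the replication genes and 5.1% for all tested genes, and the CHR bar is 76.9% for the G2 and M phase genes.

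Among the remaining roles, no gene passed against DZ. Of the 46 genes, 11 had all Foxo1-deficient libraries below all DZ libraries (5.78% of all genes) and 2 had them all above (17.3% of all genes). The 11 were Cdt1, Mcm3, Mcm6, Mcm7, Gins1, Gins2, Pola1, Rfc1, Rrm1, Rrm2 and Chaf1b, and the 2 were Orc1 and Tyms. All 6 clamp and loader genes and all 4 genes of single-strand binding and Okazaki maturation had negative changes, also under quantile normalization. The 8 polymerase and primase genes had 5 positive and 3 negative changes with a median of 0.02, which turned to -0.16 under median centring and -0.07 under quantile normalization. Their summed level was 155 ± 22.2 FPKM in Foxo1-deficient cells, against 157 ± 21.7 in DZ and 156 ± 11.8 in LZ (SD, n = 3 each). The 95% interval of the change lay within 2-fold for 35 of the 46 genes, against 46.8% of all genes.

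Pcna measured 262, 216 and 150 FPKM in Foxo1-deficient cells, against 297, 286 and 261 in DZ and 281, 272 and 256 in LZ. The replicate 1 value lies among the wild-type values and the replicate 3 value is far below them. The change against DZ was -0.46 (SE 0.18, adjusted p = 0.238), and -0.24 without Foxo1-deficient replicate 3. Orc6, a small subunit of the origin recognition complex, measured 18.3, 9.27 and 12.1 FPKM in Foxo1-deficient cells, against 30.2, 20.5 and 18.2 in DZ and 25.0, 18.3 and 16.6 in LZ, a change of -0.77 against DZ (SE 0.28, adjusted p = 0.197) in which the groups just overlap. Ccne1, the E-type cyclin that drives entry into S phase, measured 8.82, 12.8 and 2.16 FPKM in Foxo1-deficient cells, against 14.9, 10.9 and 8.00 in DZ, a change of -0.66 (SE 0.46, adjusted p = 0.522) with overlapping groups. Without Foxo1-deficient replicate 3 it was -0.04, and without replicate 2 it was -1.10.

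Foxo1-deficient replicate 3 stood apart for a number of these genes. Gins1, a subunit of GINS, was listed at 0 there, against 14.7 and 13.2 FPKM in the other Foxo1-deficient libraries, 16.1, 15.6 and 21.6 in DZ and 12.5, 13.6 and 28.7 in LZ. This 0 carried no failed or over-limit status, since genes with such a status were left out. Other status entries were not examined, and the cause of the 0 was not tested. With this 0 the change of Gins1 was -1.62 against DZ and -1.57 against LZ (limma adjusted p = 0.379 and 0.445). Without Foxo1-deficient replicate 3 the changes were -0.32 and -0.27. Geminin (Gmnn) measured 42.9, 53.8 and 19.6 FPKM in Foxo1-deficient cells, against 57.4, 47.8 and 50.3 in DZ and 54.3, 38.6 and 41.7 in LZ. Fen1, the flap nuclease of Okazaki maturation, measured 27.9, 37.3 and 13.3 FPKM in Foxo1-deficient cells, against 34.6, 42.4 and 29.1 in DZ and 39.98, 38.1 and 40.5 in LZ. In both genes replicate 3 is the lowest of the 9 libraries. It was the lowest library for 19 of the 46 genes (41.3%), against 17.4% of all genes tested. Over all genes, DZ replicate 3 was the lowest more often (24.3%), but for 4 of the 46 (8.7%). DZ replicate 3 also had the lowest summed FPKM (249700) and depth estimate (0.833) of the 9 libraries. A coefficient of variation above 30% was found for 16 of the 46 genes in Foxo1-deficient cells, 5 in DZ and 8 in LZ. The share of all genes above this limit was not counted. The median coefficient of the 46 genes was 17.9% in Foxo1-deficient cells, 18.5% in DZ and 16.7% in LZ, below the 27.5%, 23.7% and 26.3% over all genes in these groups. Foxo1-deficient replicate 3 also had the highest summed myeloid and erythroid marker levels, 315 and 553 FPKM, and one of the lowest depth estimates. The part of these in its values was not tested. Without it the median change of the 46 genes was -0.18 against DZ and -0.05 against LZ, with 0.16 and 0.02 over all genes.

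**Figure D3:**
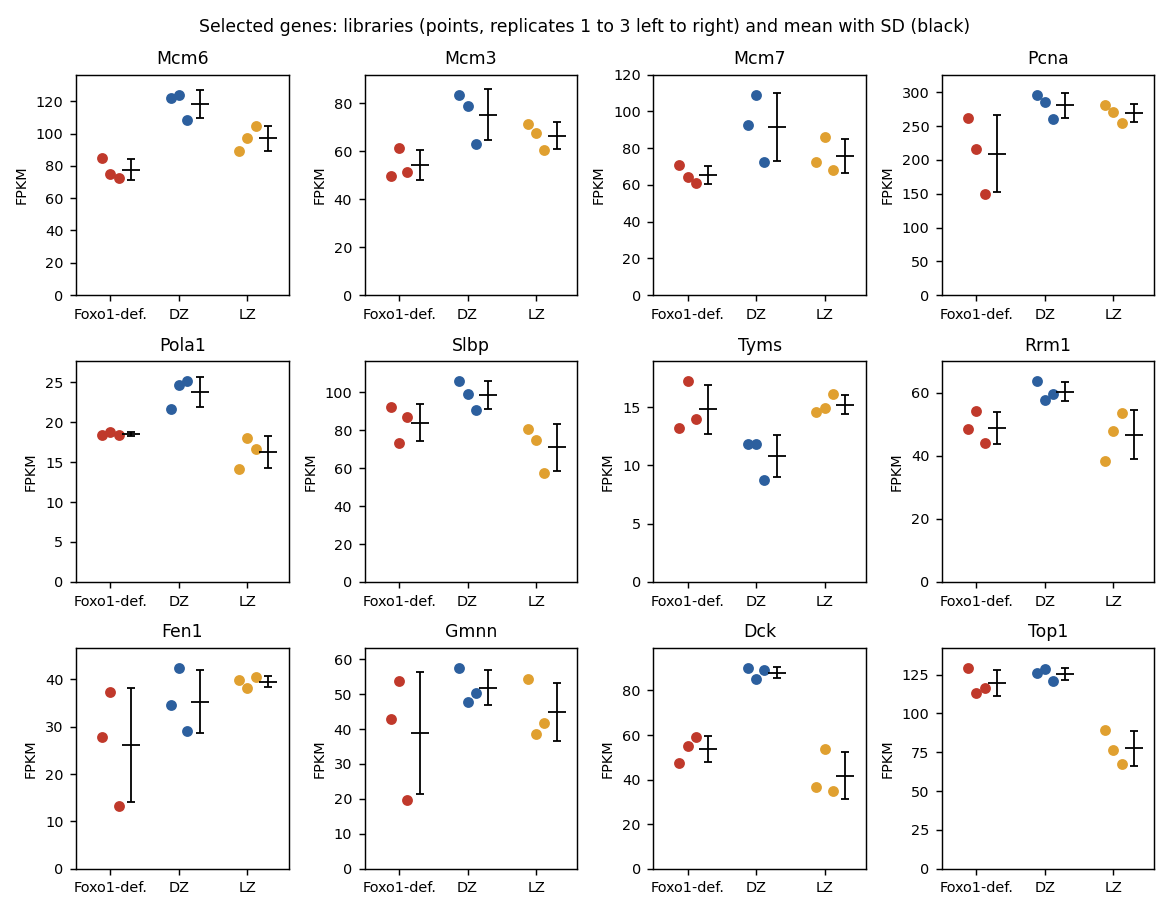
FPKM of 10 replication genes and of Dck and Top1 in each library, with Foxo1-deficient, DZ and LZ libraries from left to right in each panel and the mean with its SD (n = 3) in black. Mcm6 does not overlap between any 2 groups, the lowest points of Pcna, Fen1 and Gmnn are Foxo1-deficient replicate 3, and all DZ points of Dck lie above those of the other groups.

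Against LZ, none of the 46 genes changed in Foxo1-deficient cells by limma, where 1.56% of all genes did, 0.69% upward and 0.87% downward. At an unadjusted p under 0.05 there were 3, all with negative changes, against 13.4% of all genes and 7.64% with negative changes. Of the 46 changes, 33 were negative, against 52% of all genes, and the median was -0.13, against -0.02 over all genes. The median was -0.07 without LZ replicate 2, -0.22 without Foxo1-deficient replicate 1 and -0.05 without Foxo1-deficient replicate 3. The libraries did not overlap in 5 genes that were lower (9.37% of all genes) and in 1 that was higher (8.12%). The 95% interval lay within 2-fold for 37 of the 46 genes, against 50.9% of all genes.

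The 3 genes with an unadjusted p under 0.05 were Orc2, Mcm6 and Fen1. Orc2, a core subunit of the origin recognition complex, measured 9.18, 8.53 and 7.79 FPKM in Foxo1-deficient cells, against 14.5, 12.3 and 8.62 in DZ and 11.8, 16.0 and 13.9 in LZ. Its change against LZ was -0.64 (SE 0.23, adjusted p = 0.239), with no overlap. The change of Fen1 against LZ was -0.69 (SE 0.31, adjusted p = 0.352), and -0.29 without Foxo1-deficient replicate 3. Pold1, the catalytic subunit of polymerase delta, measured 34.6, 50.7 and 25.5 FPKM in Foxo1-deficient cells, against 37.1, 36.4 and 30.5 in DZ and 34.9, 35.0 and 36.0 in LZ, with the widest spread in Foxo1-deficient cells. Cdc45 measured 20.0, 24.3 and 12.7 FPKM in Foxo1-deficient cells, against 27.0, 22.5 and 16.2 in DZ and 18.99, 21.6 and 29.1 in LZ. Rpa1, the large subunit of the single-strand binding protein RPA, measured 54.4, 52.2 and 56.8 FPKM in Foxo1-deficient cells, against 76.7, 62.0 and 51.1 in DZ and 44.98, 58.9 and 61.0 in LZ. In Cdc45 and Rpa1 all 3 groups overlap.

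**Figure D4:**
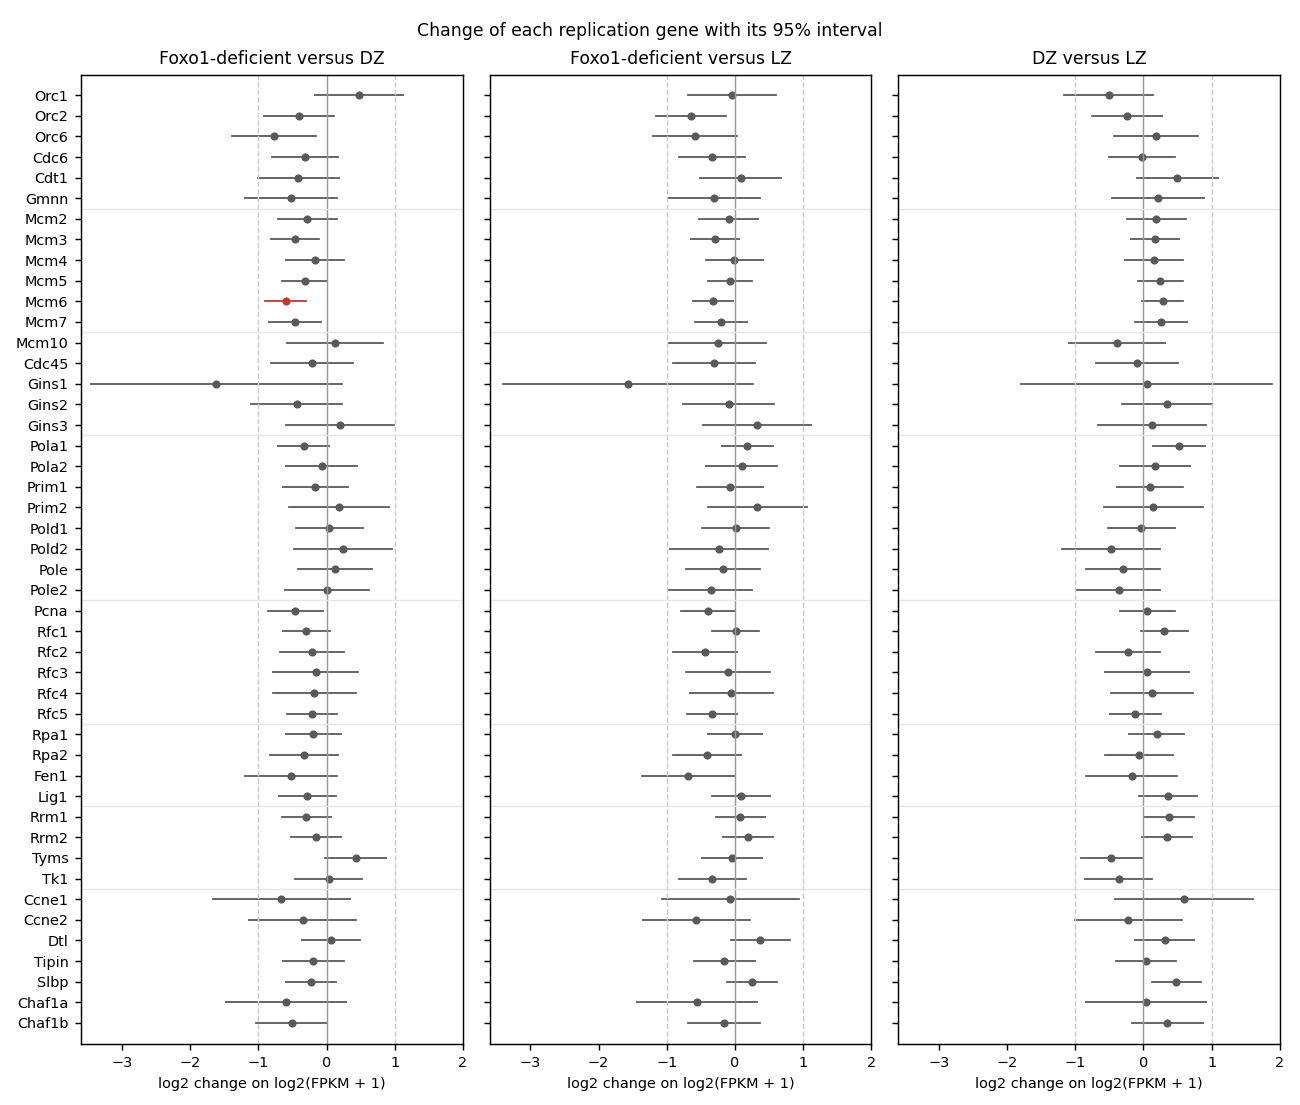
Log2 change of each of the 46 genes with its 95% interval, in 3 comparisons, on the log2(FPKM + 1) scale. Dashed lines mark a 2-fold change, red marks an adjusted p under 0.05, and Mcm6 against DZ is the single red gene.

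Between the wild-type zones, none of the 46 genes changed in DZ by limma, where 1.94% of all genes did, 0.56% upward and 1.38% downward. At an unadjusted p under 0.05 there were 4, against 15.4% of all genes. Of the 4, 3 had positive changes, against 3.72% of all genes, and 1 a negative change, against 11.7%. Of the 46 changes, 30 were positive, against 34.8% of all genes, and 16 were negative, against 65% of all genes. The median was 0.13, against -0.15 over all genes, a distance of 0.27 that was 0.22 under quantile normalization. The median was 0.05 without LZ replicate 1 (25 positive changes) and 0.07 without LZ replicate 3. It was 0.06 without DZ replicate 1, 0.07 without DZ replicate 2 and 0.24 without DZ replicate 3. Over all genes the median was -0.06 without DZ replicate 3. In 8 genes all DZ libraries lay above all LZ libraries (5.16% of all genes), and in 2 they lay below (17.1%). The 6 ring genes all had positive changes, from 0.16 to 0.28, and none passed. Median centring raises all changes in this comparison alike, and under quantile normalization all 6 ring changes stayed positive. Without LZ replicate 1, 5 were positive and 1 was negative (-0.05). For 38 of the 46 genes the 95% interval lay within 2-fold, against 48.4% of all genes.

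The 4 genes with an unadjusted p under 0.05 were Pola1, Slbp, Rrm1 and Tyms, of which Rrm1 and Tyms are singled out after their values were seen. Pola1, the catalytic subunit of polymerase alpha, measured 21.6, 24.6 and 25.1 FPKM in DZ, against 14.2, 18.1 and 16.7 in LZ. The Foxo1-deficient libraries lay between the zones, at 18.4, 18.8 and 18.5 FPKM. Its change in DZ against LZ was 0.52 (SE 0.17, adjusted p = 0.174). Slbp measured 92.1, 73.1 and 87.0 FPKM in Foxo1-deficient cells, 106, 99.2 and 90.7 in DZ and 80.6, 75.0 and 57.3 in LZ. Its change in DZ against LZ was 0.48 (SE 0.16, adjusted p = 0.19), which passed under median centring (adjusted p = 0.0438). Neither gene overlaps between the zones.

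Within nucleotide supply the changes between the zones had both signs, and none passed. Rrm1, the large subunit of ribonucleotide reductase, measured 63.6, 57.6 and 59.8 FPKM in DZ, against 38.3, 48.0 and 53.7 in LZ (0.38, adjusted p = 0.297, and 0.24 without LZ replicate 1). Rrm2, its small subunit, measured 78.0, 75.9 and 77.3 FPKM in Foxo1-deficient cells, 94.5, 83.9 and 79.6 in DZ and 54.0, 83.9 and 67.2 in LZ, and the zones overlap. Tyms, which makes thymidylate, measured 13.2, 17.2 and 14.0 FPKM in Foxo1-deficient cells, 11.8, 11.8 and 8.71 in DZ and 14.6, 15.0 and 16.2 in LZ. Tyms was thus lowest in DZ with no overlap with the other groups, and its changes were 0.43 in Foxo1-deficient libraries set against DZ (limma adjusted p = 0.329) and -0.47 in DZ against LZ (adjusted p = 0.291). The GENCODE annotation lists processed pseudogenes of Tyms and Pcna, so their values are uncertain where fragments were split among copies. Orc1 was also lowest in DZ, with 2.59, 2.61 and 4.55 FPKM in Foxo1-deficient cells, 2.34, 1.95 and 1.75 in DZ and 2.80, 4.01 and 3.12 in LZ. Its change in DZ against LZ was -0.51 (SE 0.29, adjusted p = 0.464) and rested on an estimated 36 to 72 fragments per library. Ccne1 had 14.9, 10.9 and 8.00 FPKM in DZ, against 6.69, 7.47 and 6.60 in LZ, without overlap (0.59, SE 0.46, adjusted p = 0.612, and 0.39 without DZ replicate 1).

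Other genes of the same pathway, 51 in a second list and all tested, gave 4 that rose in DZ against LZ, among them Dck, Rrm2b and Top1, and 0 that fell, against 0.56% and 1.38% of all genes. Their median change was -0.06, against -0.15 over all genes, and turned to 0.13 under median centring and 0.07 under quantile normalization. Dck, the deoxycytidine kinase of nucleotide salvage, measured 89.9, 85.0 and 89.1 FPKM in DZ, against 36.7, 53.9 and 34.9 in LZ, and rose by 1.08 (SE 0.18, adjusted p = 0.0147). Rrm2b, the p53-inducible small subunit of ribonucleotide reductase, measured 11.1, 10.3 and 22.9 FPKM in Foxo1-deficient cells, 21.5, 15.1 and 19.6 in DZ and 4.92, 7.42 and 7.33 in LZ. It rose by 1.39 in DZ against LZ (SE 0.30, adjusted p = 0.0455). Top1, the topoisomerase that relaxes DNA ahead of forks and transcribing polymerases, measured 129, 114 and 116 FPKM in Foxo1-deficient cells, 126, 129 and 121 in DZ and 89.4, 76.4 and 67.2 in LZ. It rose by 0.69 in DZ against LZ (limma adjusted p = 0.0345). Dck and Rrm2b act in nucleotide supply.

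Dck measured 47.4, 55.2 and 58.9 FPKM in Foxo1-deficient cells, with changes of -0.70 against DZ (adjusted p = 0.0659) and 0.38 against LZ (adjusted p = 0.393). Against DZ, 1 of the 51 fell and 0 rose by limma, against 0.75% and 2.1% of all genes. An unadjusted p under 0.05 was found there for 5, against 16.3% of all genes. None of the 51 changed against LZ by limma, where 1.56% of all genes did. Of the 51, 6 had an unadjusted p under 0.05, against 13.4% of all genes. Between the zones, leaving out any 1 DZ library ended the calls of Dck, Rrm2b and Top1, as did LZ replicates 1 and 3 for Dck, LZ replicates 1 to 3 and Foxo1-deficient replicate 1 for Rrm2b, and LZ replicates 2 and 3 and Foxo1-deficient replicate 2 for Top1. Adjusted p then reached 0.0618 for Dck, 0.159 for Rrm2b and 0.117 for Top1.

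Set beside 30 genes of G2 and M phase, the replication genes had smaller changes between the zones. All 30 fitted changes in DZ against LZ were positive, against 34.8% of all genes, with a median of 0.62. Of the 30, 7 rose (Ccnb2, Cdc20, Cdca8, Cenpa, Nuf2, Tpx2 and Ube2c), against 0.56% of all genes, and 0 fell. Against LZ, 28 of the 30 had positive changes in Foxo1-deficient cells (48% of all genes) with a median of 0.44. At an unadjusted p under 0.05, 15 had positive changes (5.79% of all genes), although none passed adjustment, where the replication genes had 13 positive changes and a median of -0.13. Against DZ the medians were -0.21 for G2 and M phase and -0.26 for replication. The comparisons share libraries, and the difference between the lists was not tested. Ube2c, which loads ubiquitin for the anaphase-promoting complex, measured 48.5, 61.6 and 39.7 FPKM in Foxo1-deficient cells, against 72.7, 75.1 and 58.1 in DZ and 40.6, 32.9 and 35.2 in LZ. In DZ against LZ it rose by 0.90 (limma adjusted p = 0.0409).

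**Figure D5:**
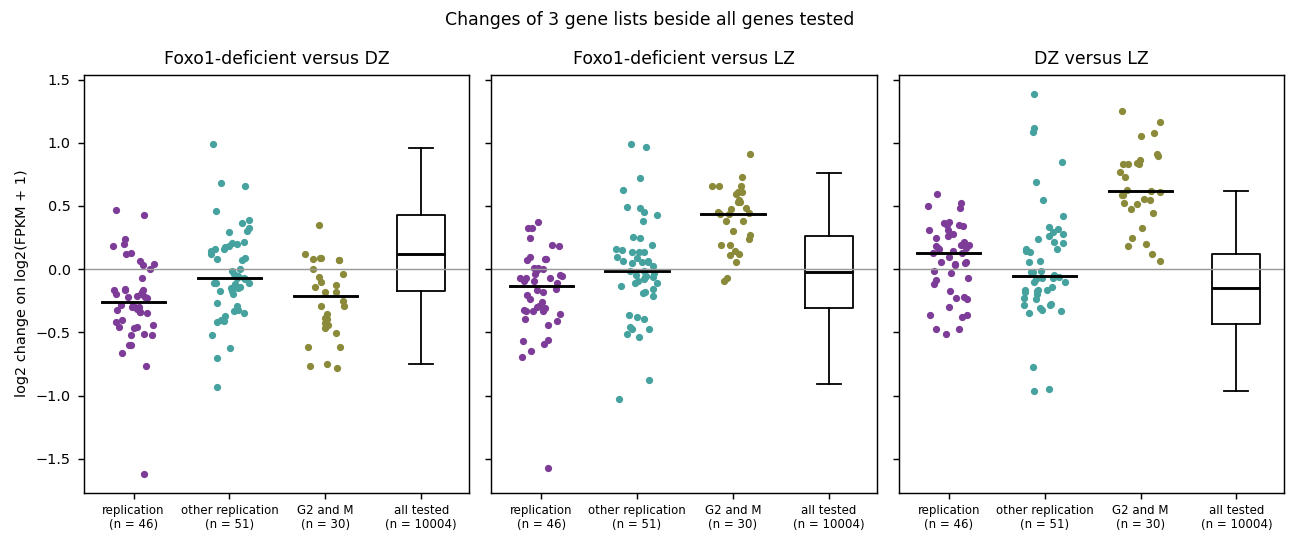
Log2 changes of the 46 replication genes, 51 other replication genes and 30 genes of G2 and M phase (points, median as a bar) beside all 10004 genes tested (box from the lower to the upper quartile, whiskers from the 5th to the 95th percentile), in 3 comparisons. The medians of the G2 and M phase genes are 0.44 in Foxo1-deficient cells against LZ and 0.62 in DZ against LZ, while those of the 46 replication genes are -0.13 and 0.13.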

How the data were processed

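For each library the authors deposited gene-level FPKM values with interval bounds and a status, per the file headers. Named in the submitters' processing notes are mm9, Cufflinks 2.1.1 and TopHat2 2.0.8. The total behind the FPKM and any use of strand are not given in the sources used here. Each table has 23700 entries. Left out were 716 entries of 250 repeated symbols and 7 genes with a failed or over-limit estimate. The members and lists were chosen with earlier results of these data known.

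The test was limma 3.58.1 in R 4.3.3 (trend option) on log2(FPKM + 1), with all 9 libraries in 1 fit of group means. It was two-sided with Benjamini-Hochberg adjustment over the 10004 genes and a threshold of 0.05. Changes are the group named first minus the second, and this scale understates changes of low genes. The fit was checked on simulated data with independent noise for each gene and library, so shifts of a whole library were not covered. Given with their values in every library are the members with an adjusted p under 0.05, the 3 largest member changes per comparison and the most abundant member per role. Of the other lists, genes past the threshold may be named, with values for Dck, Rrm2b, Top1 and Ube2c chosen after they were seen. Alternatives were other pseudocounts, no filter, other scalings, a replicate block, fewer groups and each library left out.

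Total counts are not in the files. The Cufflinks intervals, read as 2 SD of a counting error in 4347 genes with 10 to 300 implied fragments, gave relative depths of 0.833 to 1.2, an estimate that covers counting error only. For 13 members every library lay in this range, with 30 to 296 fragments. Of the 46 genes, 7 overlap another entry (Mcm7, Gins2, Pold2, Rfc4, Lig1, Tk1 and Ccne2), so fragments there could be shared. Promoter sequences are RefSeq's on GRCm38.p6. A gene of the second replication list is not reported here.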

Additional observations from a re-analysis of the deposited data

How the results depend on the processing

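Over the alternatives run, the 30 tests of named genes gave the same outcome in 377 cases, a lost call in 100 and a gained call in 3. The 377 include tests that passed neither in the main fit nor in the alternative. They therefore overstate how often a call held, since all 100 losses fall on tests that passed in the main fit. No fitted change of a called gene turned its sign. With a pseudocount of 0.1, 99 genes instead of 156 changed in Foxo1-deficient cells against LZ. With no filter on low values, 109 instead of 194 changed in DZ against LZ. Fitting each pair of groups alone gave 58 and 122, and 0 replication genes changed in Foxo1-deficient cells against DZ. Median centring called 3 replication genes there instead of 1 (Mcm3, Mcm6 and Mcm7) and 1 instead of 0 in DZ against LZ (Slbp), and it split the genes changed in Foxo1-deficient cells against DZ into 181 higher and 225 lower, where the main scaling gave 210 and 75. Quantile normalization gave 219 and 141 there. In DZ against LZ the split was 56 higher and 138 lower, 133 and 101 under median centring and 89 and 119 under quantile normalization. In Foxo1-deficient cells against LZ it was 69 and 87, and 100 and 63 with no filter. Leaving out 1 library at a time gave 48 to 145 changed genes in Foxo1-deficient cells against LZ, 127 to 246 of 285 against DZ and 72 to 210 in DZ against LZ, and 0 changed replication genes in each of the 3 comparisons. Each of the 7 calls of G2 and M phase genes was lost without some libraries. The cause of these shifts was not tested, beyond fewer samples in the fits that leave some out.

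The labels do not say what a replicate number marks. The 9 pairs of same-numbered libraries had deviations from group means correlated at -0.07 to 0.08, none over 0.1, and 8 of 9 libraries correlated best with one of their own number, a hint from the data and not from the design. With the number as a replicate block, 137, 221 and 161 genes changed in Foxo1-deficient cells against LZ, against DZ and in DZ against LZ, and 0 replication genes. Under the block Mcm6 no longer passed against DZ (adjusted p = 0.0599), nor did Ccnb2 and Tpx2 between the zones (adjusted p = 0.0517 and 0.0786).

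Total counts are not in the files, so depth limits low genes to an unknown degree. Orc1 and Ccne1 go down to an estimated 36 and 30 fragments in a library.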
